A study of Mus musculus with 14 samples.

Results

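The genes of coagulation and fibrinolysis were followed in the liver of Apoe-deficient mice that received erythrodiol, a triterpenic alcohol of the olive. A list of 34 genes was drawn up by their known function. Each gene was found by its symbol in the deposited table of 17552 genes. All 34 had at least 100 counts in both groups together, a minimum that 13291 genes reached.

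Liver poly-A RNA of male Apoe-deficient mice was sequenced from 7 control libraries and 7 erythrodiol libraries. The labels give the strain as C57BL/6, and the study's methods give the background as C57BL/6J. Each library was a pool of RNA from a few animals. Both groups ate a Western diet, that of the erythrodiol group was enriched in the compound to a dose of 10 mg/kg of body weight, and the labels give 8 weeks for both the age and the feeding, whereas the study's methods state a longer feeding. No wild-type mice and no other diet entered the comparison. Apoe itself, the gene deficient in both groups, had 9403 counts in control and 8293 in erythrodiol livers. The gene table does not show which part of the gene those reads covered.

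The gene values used here were 1 sum per group over its 7 libraries. Values per library, a spread between pools and a test of the groups could therefore not be given for any gene. Control libraries held 34856340 to 55244294 clean reads and erythrodiol libraries 47669656 to 48058606. The shares of reads mapped to genes were 64.3 to 81.4% and 73.0 to 76.1% for control and erythrodiol, respectively. In 3 control libraries only 51.4 to 54.2% of reads mapped to 1 place, against at least 57.9% in every erythrodiol library. Their weight in the control sums was not tested, since a sum cannot be taken apart. The sums of all genes were 122889032 and 124686047 counts for control and erythrodiol, respectively. The smallest sum among the 34 genes was 273 counts in both groups together.

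Coagulation is a cascade of plasma proteases that ends with thrombin cutting fibrinogen into fibrin. Tissue factor or the contact system starts the cascade, cofactors speed it, and vitamin K-dependent carboxylation lets several of its proteases bind membranes. Fibrinolysis is the removal of fibrin by plasmin. Hepatocytes make most of these proteins, while a few come from endothelial cells, stellate cells or megakaryocytes.

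Ratios are given below as the log2 of erythrodiol over control after scaling each sum by its column total. Words such as higher and lower describe these 2 sums alone. The 95% intervals are exact for the sampling of counts and leave out all variation between pools. Since ratios in these data moved with transcript length, each ratio was also set against the median of the 500 genes nearest in length. That difference is called the like-length ratio. It does not depend on how the groups were scaled. Sums are given per 1000000 counts of the column (CPM), and levels are CPM divided by the length of the transcript in kilobases. A gene was counted as past the log2 limit of 0.32 where its ratio was at least 25% above 1 or at least 20% below it.

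The 34 genes as a whole held a similar share of the liver's counts in both groups, 2.38% in the control and 2.39% with erythrodiol. Single genes differed inside that sum. F5 (coagulation factor V), Hrg (histidine-rich glycoprotein), Ggcx (gamma-glutamyl carboxylase), Adamts13 and Thbd (thrombomodulin) were higher past that limit. Cpb2 (the fibrinolysis inhibitor TAFI), Procr (endothelial protein C receptor) and Plau (urokinase) were lower past it. The fibrinogen genes Fgb and Fgg were lower and Fga was higher, all within the limit. No member reached 2-fold either way.

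The 5 genes higher past the limit stood beside 24.4% of all genes, and the 3 lower ones beside 8.89%. As shares of the 34 genes these were 14.7% and 8.82%. The other 26 lay between. Among all genes, 0.218% were higher and 0.549% lower by 2-fold or more. The median log2 ratio was 0.085 over the members and 0.16 over all genes. The ratio was above 0 for 20 members and below 0 for 14, while it was above 0 for 71.2% of all genes. Centring on the median of all genes, a shift of 0.16, left 0 members higher and 10 lower past the limit. After that centring 6.31% of all genes were higher and 16.6% lower. Under the totals F12, F2r, F8, Klkb1, Plg, F10, F2, F9 and Proc lay between 0.0092 and 0.15, and they turned negative after centring.

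Against genes of like length, 0 members were higher past the limit, with 6.03% of all genes, and 6 were lower, with 13.5%. The 6 were Cpb2, Procr, Plau, Tfpi, F13b and F13a1. F13a1 had only 145 and 128 counts, and the interval of its log2 ratio under the totals, -0.56 to 0.15, included 0. Past 2-fold there were 0 members, beside 0.15% of all genes higher and 0.466% lower. The median like-length ratio of the members was -0.071, with 11 members above 0 and 23 below. By construction the median of all genes was near 0 on that scale.

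**Figure D1:**
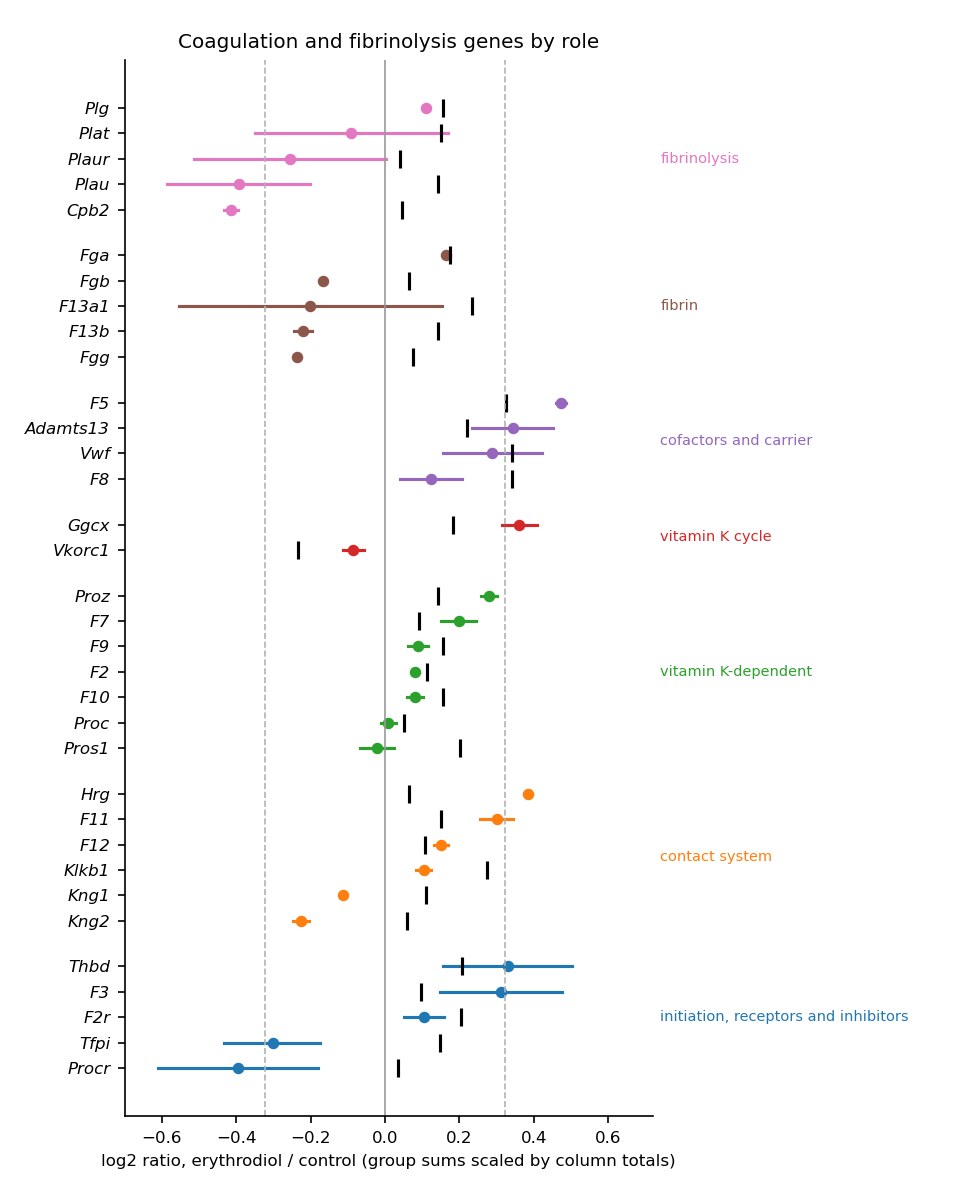
Log2 ratio of erythrodiol over control for each of the 34 genes (x axis, group sums scaled by column totals), grouped by role. Points are ratios, horizontal bars 95% counting intervals, black ticks the median of the 500 genes nearest in length and dashed lines the limit of 0.32: 5 genes lie past the right line and 3 past the left, and ratios between 0.0092 and 0.15 change side with another scaling.

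Fibrinogen is built from 3 chains encoded by Fga, Fgb and Fgg, and cross-linked after clotting by factor XIII. The 3 chain genes had the highest levels of the list in both groups. Fga, the alpha chain, had 546749 counts in control and 621623 in erythrodiol livers, a log2 ratio of 0.16. Fgb, the beta chain, had 552892 and 499518 counts, a ratio of -0.17. Fgg, the gamma chain, had 482245 and 414891 counts, a ratio of -0.24. Under total scaling the alpha chain gene was thus higher in the erythrodiol sum, and those of the other chains lower. After centring on the median of all genes Fga was at 0.0022, Fgb at -0.33 and Fgg at -0.40.

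Per length, Fga stood at 1512 and 1695, Fgb at 2626 and 2339, and Fgg at 2263 and 1919 for control and erythrodiol, respectively. The level of Fga was 0.576 of that of Fgb in the control and 0.725 with erythrodiol. Against Fgg the same quotient was 0.668 and 0.883. Fgb over Fgg moved less, from 1.16 to 1.22. The Fga transcript counted is longer, with 2942 bases against 1713 for Fgb and 1734 for Fgg. Like-length ratios were -0.0093 for Fga, -0.23 for Fgb and -0.31 for Fgg, so Fga lay at the median of genes of its length and the others below it. On that scale Fga differed from Fgb by 0.22 and from Fgg by 0.30, against 0.33 and 0.40 before.

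The 3 chain genes lie side by side on chromosome 3 of GRCm38, Fgg at 83007724 to 83015056, Fga at 83026153 to 83033627 and Fgb at 83042246 to 83049863. Their promoters are shown because neighbours that encode 1 protein differed in ratio here. Each is 300 bases from RefSeq (build GRCm38.p6), from 250 bases before the transcript's start to 50 after it, 5′ to 3′ along the gene's strand. They lie at chr3:83025903-83026202 on the plus strand (Fga), chr3:83049814-83050113 on the minus strand (Fgb) and chr3:83007474-83007773 on the plus strand (Fgg). Capitals mark matches, on either strand, to the motifs described after them.
Fga: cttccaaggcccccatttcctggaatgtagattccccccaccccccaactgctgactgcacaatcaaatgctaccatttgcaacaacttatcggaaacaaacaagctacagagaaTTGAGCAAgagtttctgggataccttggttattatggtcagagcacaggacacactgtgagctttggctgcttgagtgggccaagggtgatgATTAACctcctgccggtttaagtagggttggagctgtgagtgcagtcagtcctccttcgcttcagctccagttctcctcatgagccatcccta
Fgb: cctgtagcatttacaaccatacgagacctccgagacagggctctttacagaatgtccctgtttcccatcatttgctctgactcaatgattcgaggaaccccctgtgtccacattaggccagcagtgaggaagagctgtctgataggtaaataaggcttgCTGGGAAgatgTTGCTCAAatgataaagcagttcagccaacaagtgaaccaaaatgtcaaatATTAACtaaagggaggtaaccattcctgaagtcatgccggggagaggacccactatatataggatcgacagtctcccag
Fgg: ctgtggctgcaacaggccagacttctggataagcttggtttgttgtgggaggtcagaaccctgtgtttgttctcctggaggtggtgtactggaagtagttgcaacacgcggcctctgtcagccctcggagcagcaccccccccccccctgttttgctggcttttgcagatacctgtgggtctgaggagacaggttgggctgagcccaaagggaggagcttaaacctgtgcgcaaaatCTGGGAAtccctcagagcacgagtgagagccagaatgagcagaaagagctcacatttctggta
Searched on both strands were TATAAA (the box bound by the general transcription machinery), GTTAAT (part of the site of the hepatocyte factor HNF1), CTGGGAA (known from the interleukin 6 response of fibrinogen genes) and TTGCNNAA (the core of C/EBP sites). Fga held GTTAAT from 43 and TTGCNNAA from 135 bases before the start, both on the opposite strand. Fgb held GTTAAT from 29 bases before the start on the opposite strand, and TTGCNNAA from 80 and CTGGGAA from 91 bases before it on the strand shown. Fgg held CTGGGAA from 13 bases before its start on the strand shown. These matches do not overlap, and letters that match are not evidence that a factor bound.

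RefSeq promoters were found for 27 of the 34 genes, 29 promoters in all. Those of Kng1, Plat, Plau, Plg, Proc, Thbd and Vwf were not matched. TTGCNNAA was present in 11 of the 29 (37.9%) and in 10.8% of all 32851 promoters of that length. CTGGGAA was in 6 (20.7%) against 11.1%, GTTAAT in 5 (17.2%) against 7.10%, and TATAAA in 4 (13.8%) against 13.6%. Median GC content was 53.0% for the members' promoters and 52.7% for all.

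F13b, the carrier subunit of factor XIII, had 28840 counts in control and 25101 in erythrodiol livers (log2 ratio -0.22, like-length ratio -0.36). F13a1, its transglutaminase subunit, had the lowest level of the list, with 145 and 128 counts. Its ratio of -0.20 had an interval from -0.56 to 0.15, so a difference was not detectable at this depth under total scaling. The like-length ratios of all 5 fibrin genes were below 0, as were those of 6643 of all 13291 genes. Fga, at -0.0093, lay at the median. Only F13b and F13a1 passed the limit, beside 13.5% of all genes lower past it. Summed, the 5 fibrin genes made 13108 CPM in the control and 12522 with erythrodiol.

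**Figure D2:**
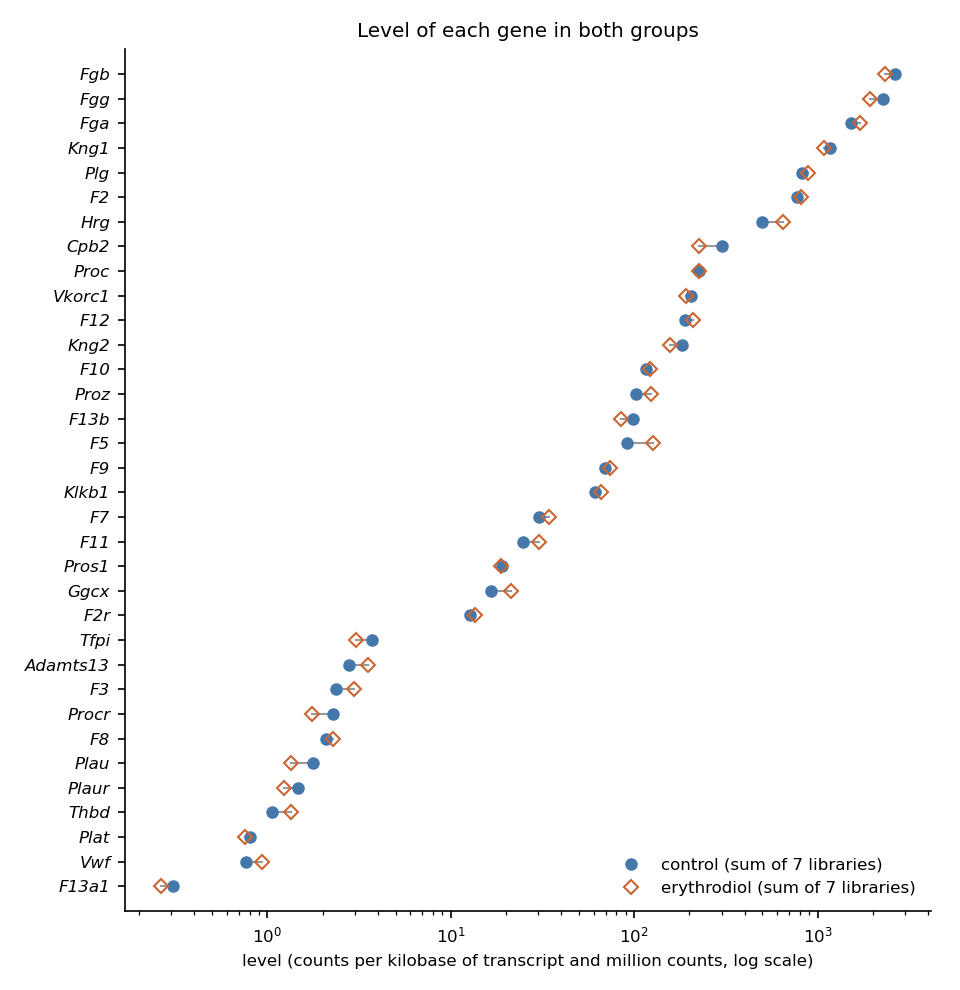
Level of each of the 34 genes (x axis, CPM per kilobase of transcript, log scale) in the control (filled circles) and erythrodiol sums (open diamonds), in the order of the control. Fgb is highest at 2626 and 2339 and F13a1 lowest at 0.304 and 0.265.

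Initiation runs from tissue factor, encoded by F3, and is held in check at the vessel wall by tissue factor pathway inhibitor, thrombomodulin and the endothelial protein C receptor. F3 had 549 counts in control and 691 in erythrodiol livers, a log2 ratio of 0.31 (interval 0.15 to 0.48). Thbd, which turns thrombin toward protein C activation, had 487 and 621 counts (0.33, interval 0.16 to 0.50). F2r, the main thrombin receptor, had 5136 and 5603 counts, a ratio of 0.10. Tfpi had 1088 and 895 counts, a ratio of -0.30 with an interval from -0.43 to -0.17. Procr, which presents protein C to thrombomodulin-bound thrombin, had 412 and 318 counts (-0.39, interval -0.61 to -0.18). Like-length ratios were 0.21 for F3, 0.12 for Thbd, -0.10 for F2r, -0.45 for Tfpi and -0.43 for Procr. Thbd and Procr, partners on the same surface, thus lay on opposite sides. Except for F2r at 12.7 in the control, these genes had levels under 4 CPM per kilobase in both groups.

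The contact system links factor XII and prekallikrein, on kininogen, to factor XI. F12 had 45766 counts in control and 51549 in erythrodiol livers, a log2 ratio of 0.15. F11 had 7179 and 8967 counts, a ratio of 0.30 with an interval from 0.25 to 0.34. Klkb1, prekallikrein, had 39449 and 43023 counts, a ratio of 0.10. The protease genes of this system all had sums above the control under total scaling, while only F11 kept a positive ratio after centring on all genes.

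Kng1 and Kng2, the kininogen genes, had lower sums with erythrodiol. Kng1 had 278274 and 261033 counts (log2 ratio -0.11) and Kng2 had 36635 and 31776 (-0.23). The level of Kng1 was 6.42 times that of Kng2 in the control and 6.94 times with erythrodiol. They shared 4.93% and 5.29% of their stretches of 100 bases with each other, and their sums were not whole numbers, so part of their reads was divided between them by estimate. For F10, Ggcx and Adamts13 the sums were not all whole numbers either, so part of their reads was also divided by estimate. Adamts13 shared 2.59% of its stretches of 100 bases with Gm48161, while F10 and Ggcx shared 0 with any other gene. Which sequences took the other part of those reads was not tested.

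Hrg encodes a plasma glycoprotein that binds heparin, plasminogen and factor XII. It had 107526 counts in control and 142398 in erythrodiol livers, 1.31-fold (log2 ratio 0.38, interval 0.37 to 0.40). Its like-length ratio of 0.32 was the highest of the list, just under the limit, and higher than in 90.6% of the 500 genes nearest in length. Hrg and the kininogen genes are neighbours on chromosome 16, Hrg at 22951072 to 22961659, Kng2 at 22985852 to 23029101 and Kng1 at 23058220 to 23082078. Hrg thus lay above, and both kininogen genes below, genes of like length. In the contact system, like-length ratios of the other genes were 0.043 for F12, 0.15 for F11, -0.17 for Klkb1, -0.22 for Kng1 and -0.29 for Kng2. Of the Klkb1 stretches of 100 bases, 42.1% were shared with Gm45753, another annotated gene. The sums of Klkb1 were whole numbers, so they held no sign of reads divided by estimate. Whether reads of Gm45753 were counted for Klkb1 was not tested.

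The vitamin K-dependent proteins carry carboxylated glutamates. F2, prothrombin, had 194316 counts in control and 208565 in erythrodiol livers, a log2 ratio of 0.081. F9 had 23322 and 25157 counts (0.088) and F10 had 35754 and 38369 (0.081). F7, the partner of tissue factor, had 6818 and 7935 counts, a ratio of 0.20 with an interval from 0.15 to 0.24. These proteases of the cascade thus differed by at most 1.15-fold.

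Proz, protein Z, a cofactor in the inhibition of factor Xa, had 29732 and 36617 counts, 1.21-fold, with a log2 ratio of 0.28. Proc, protein C, which inactivates factors V and VIII, had 44301 and 45235 counts, a ratio of 0.0092 with an interval from -0.0098 to 0.028. Pros1, its cofactor protein S, had 7623 and 7619 counts (-0.022, interval -0.068 to 0.024). For Proc and Pros1 the intervals under total scaling included 0 and were narrow, so counting error left room for a small difference only. Like-length ratios ran from -0.22 for Pros1 to 0.14 for Proz, with 0.11 for F7, -0.032 for F2, -0.042 for Proc, -0.068 for F9 and -0.074 for F10. None of the 7 passed the limit on either scale. F7 (13025506 to 13035809), F10 (13037308 to 13056676) and Proz (13060584 to 13076026) follow each other on chromosome 8, with log2 ratios of 0.20, 0.081 and 0.28 in that order.

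Ggcx and Vkorc1 supply the vitamin K cycle, the former carboxylating the proteins and the latter regenerating the vitamin. Ggcx had 6230 counts in control and 8118 in erythrodiol livers, a log2 ratio of 0.36 (interval 0.31 to 0.41). Vkorc1 had 19095 and 18264 counts, a ratio of -0.085 (interval -0.11 to -0.056). Their like-length ratios were 0.18 and 0.15, both above 0, since Vkorc1 is the shortest of the 34 transcripts at 764 bases and genes of its length had a median of -0.24. Vkorc1 shared 41.0% of its stretches of 100 bases with Gm21974, and its sums were whole numbers too.

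F5 and F8 encode the cofactors of the cascade, Vwf the carrier of factor VIII, and Adamts13 the protease that trims von Willebrand factor. F5, on chromosome 1 at 164151835 to 164220277, had the highest ratio of the list. It had 83190 counts in control and 117144 in erythrodiol livers, 1.39-fold, a log2 ratio of 0.47 with an interval from 0.46 to 0.49. Its level per length went from 91.1 to 126, and its place in the order of the list from 16 to 13. The F5 transcript is also long, with 7433 bases, and its like-length ratio was 0.15. It exceeded 84.6% of the 500 genes nearest in length.

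F8 had 2225 and 2461 counts, a log2 ratio of 0.12, and lay below genes of its length at -0.22. The other cofactor gene thus did not share the place of F5 on either scale. Vwf had 827 and 1025 counts (0.29, interval 0.16 to 0.42), with a like-length ratio of -0.054. Adamts13 had 1198 and 1541 counts (0.34, interval 0.23 to 0.45), with a like-length ratio of 0.12. In the liver F8 and Vwf are mainly endothelial and Adamts13 is mainly made by stellate cells.

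Fibrinolysis starts when plasminogen is cut to plasmin by urokinase or tissue plasminogen activator, and TAFI slows it by trimming fibrin. Plg, plasminogen, had 279144 counts in control and 305761 in erythrodiol livers, a log2 ratio of 0.11. Plau had 510 and 394 counts (-0.39, interval -0.59 to -0.20). Plaur, the urokinase receptor, had 273 and 232 counts, and its interval from -0.51 to 0.0021 included 0. Plat, tissue plasminogen activator, had 254 and 242 counts, with an interval from -0.35 to 0.17. For Plaur and Plat a difference was thus not detectable at this depth under total scaling. Another scaling shifts these intervals, and that of Plaur ended close to 0.

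Cpb2, on chromosome 14 at 75242287 to 75283555, had the lowest ratio of the list. It had 55281 counts in control and 42063 in erythrodiol livers, 0.750-fold, a log2 ratio of -0.42 with an interval from -0.43 to -0.40. Its level per length went from 299 to 224. Only 9.0% of the 500 genes nearest in length had a lower ratio. The like-length ratios were -0.46 for Cpb2, -0.53 for Plau, -0.30 for Plaur, -0.24 for Plat and -0.046 for Plg. All 5 fibrinolysis genes lay below the median of genes of their length, Plg only just. So did 23 of the 34 members and 6643 of all 13291 genes. Only Cpb2 and Plau passed the limit, beside 13.5% of all genes lower past it.

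The plot of ratio against length shows how the members followed the trend of the whole table. Over all genes the median log2 ratio went from -0.18 in the shortest of 10 classes of length, up to 1211 bases, to 0.33 in the longest, from 6116 bases. Across the 34 genes the ratio and log2 length had a Pearson's r of 0.46, and over all genes 0.44. Spearman's rho was 0.49 and 0.43, respectively. These are correlations across genes that share the same libraries and are given as a description. The members' transcripts ran from 764 to 8822 bases with a median of 2368, against 2856 for all genes.

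**Figure D3:**
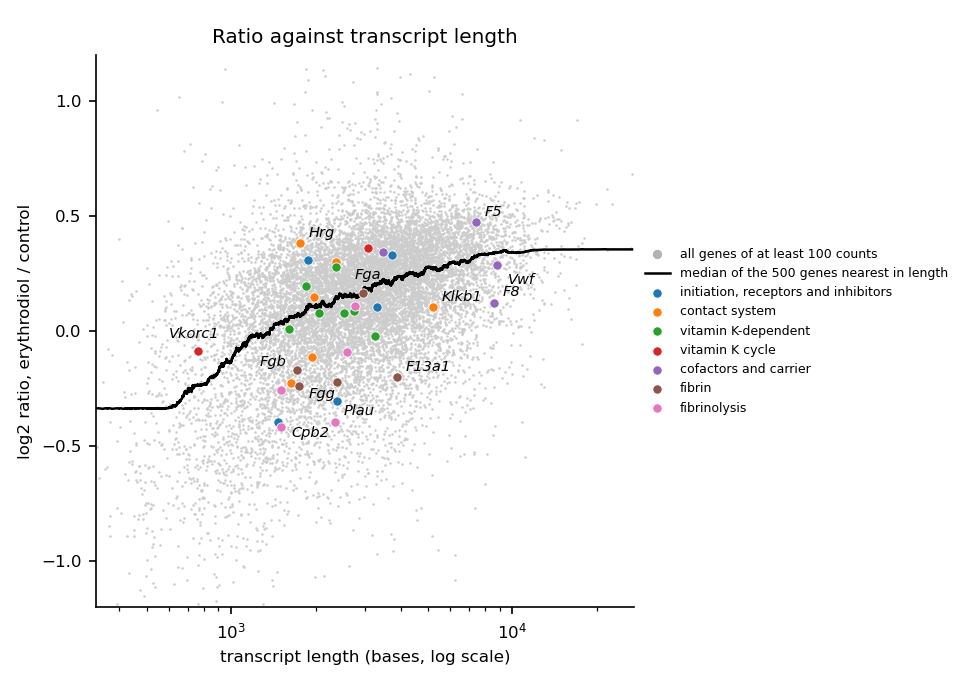
Log2 ratio of erythrodiol over control (y axis) against transcript length (x axis, bases, log scale) for all genes of at least 100 counts (grey) and the 34 genes (coloured by role), with the running median of the 500 genes nearest in length (line). The y axis ends at 1.2 either way and leaves out 53 genes, none of the 34; 23 of the 34 genes lie below the line and 11 above it.

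By level, 23 of the members had a level of at least 10 in the control, and the other 11 had less. The median like-length ratio was -0.046 in the former and -0.24 in the latter. The genes of lower level included Procr, Plaur, Plau, Plat, Thbd, F8 and Vwf. They made only 64.8 and 68.6 CPM together, for control and erythrodiol, respectively.

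Other genes of haemostasis, 29 in number, were listed by function, and 25 had at least 100 counts. Their median log2 ratio was 0.072 and their median like-length ratio -0.10, near the 0.085 and -0.071 of the 34 genes. Past the limit 1 of the 25 was higher and 6 were lower, beside 24.4% and 8.89% of all genes. Among inhibitors, Pzp, a broad protease inhibitor (0.31), and Serping1, C1 inhibitor (0.17), had the highest ratios. Tfpi2, a Kunitz-type inhibitor, had the lowest (-0.44). Antithrombin, Serpinc1, had 216996 and 243569 counts, a ratio of 0.15.

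Among receptors and surface proteins, Lrp1, which clears factor VIII (0.33), and Asgr2, a chain of the asialoglycoprotein receptor (0.22), were highest. Anxa2 (-0.57) and S100a10 (-0.54), which together form a plasminogen receptor, were lowest. That order holds for ratios under the totals. Against genes of like length Lrp1 was at -0.022, Asgr2 at 0.21, Anxa2 at -0.58 and S100a10, within the limit, at -0.23. In the list of secretion and the vitamin K cycle, Habp2, a plasma protease (0.31), and Vkorc1l1, a paralogue of Vkorc1 (0.30), were highest. Fgl1, a fibrinogen-like protein of hepatocytes, had 55990 counts in control and 27899 in erythrodiol livers, a log2 ratio of -1.03, the only one past 2-fold among the 25 genes of at least 100 counts. Fgl2, a fibrinogen-like prothrombinase, had 2364 and 1503 counts (-0.67). Against genes of like length 0 of the 25 were higher and 6 lower past the limit, beside 6.03% and 13.5% of all genes.

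Markers of the liver's cell types were read beside these values. Of 8 hepatocyte markers 7 were matched, and they made 106528 CPM in the control and 108248 with erythrodiol. Their median log2 ratio was 0.25, from -0.055 (Alb) and 0.14 (Apoa1) to 0.36 (Cps1) and 0.38 (Tat). The 10 sinusoidal endothelial markers made 329 and 359 CPM (median 0.10), from Clec4g (-0.26) and Fcgr2b (-0.099) to Eng (0.28) and Kdr (0.33). The 8 stellate markers made 548 and 525 (median 0.037), from Dcn (-0.17) and Lrat (-0.15) to Pdgfrb (0.19) and Reln (0.19). None of these 25 markers was at 0. Past the limit 3 hepatocyte markers and 1 endothelial marker were higher and 0 lower, beside 24.4% and 8.89% of all genes. Of the stellate markers 0 passed it. Against genes of like length the medians were 0.20 for hepatocyte, -0.15 for endothelial and -0.21 for stellate markers. On that scale 8 of 10 endothelial and all 8 stellate markers lay below 0, as did 6643 of all 13291 genes. Past the limit 2 stellate markers were lower there, beside 13.5% of all genes, and 0 of the hepatocyte and endothelial markers passed it.

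Macrophage markers were lower, with 1138 and 749 CPM in the control and erythrodiol sums, and 7 of 9 past the limit, beside 8.89% of all genes. They ran from Marco (-1.07) and Adgre1 (-0.75) to Csf1r (-0.17) and Cd68 (0.036). Macrophages also make some of the low-level members, F13a1, Plau and Plaur among them. In whole liver, fewer cells of a type and less RNA per cell cannot be told apart. Of 10 platelet markers 3 reached 100 counts, Ppbp (-1.02), Pf4 (-0.68) and Itga2b (0.24), and all 10 summed to 5.55 and 4.46 CPM. Of 8 neutrophil markers 3 did, Prtn3 (-3.18), S100a8 (-1.19) and S100a9 (-1.11), and all 8 summed to 13.2 and 4.88. No marker of these lists was at 0 in either group. Their part in the values of the members was not tested.

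**Figure D4:**
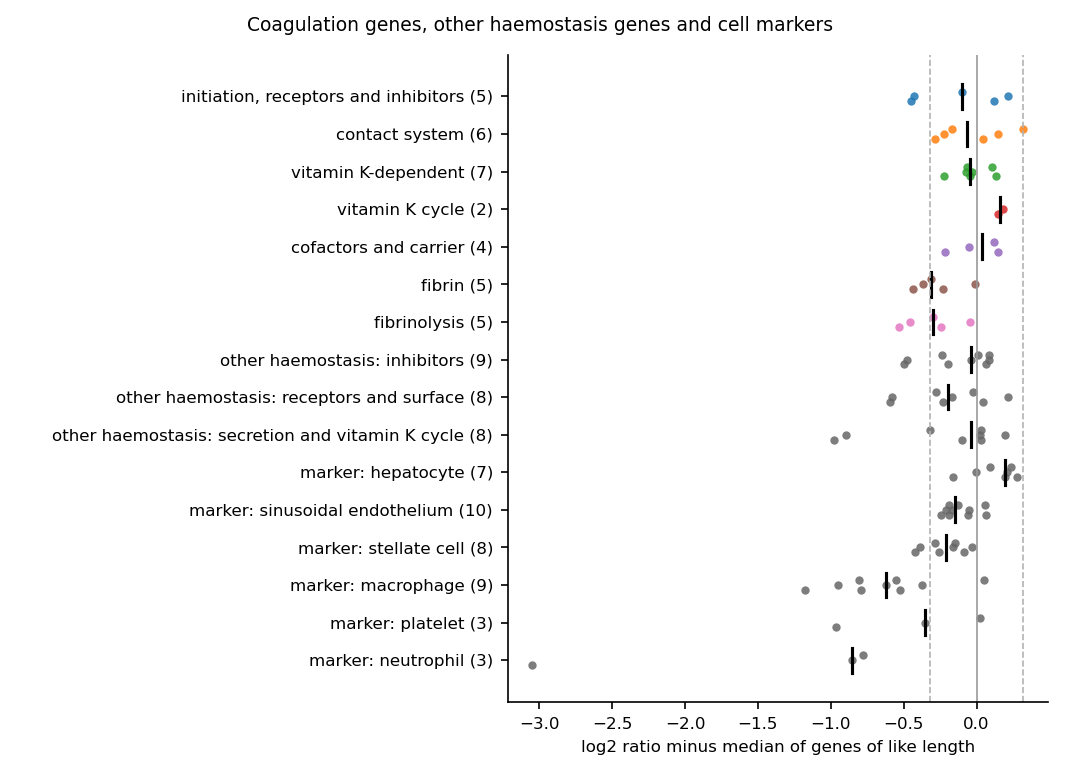
Like-length log2 ratio (x axis, erythrodiol over control) of the members by role (coloured) and of other haemostasis genes and cell markers (grey), 1 point per gene of at least 100 counts, with the number of genes in parentheses, the median of each list (black bar) and the limit of 0.32 (dashed). The medians are -0.31 for fibrin, -0.30 for fibrinolysis, 0.20 for hepatocyte and -0.62 for macrophage markers.

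Transcripts that the authors' assembly added to the annotation were found for 10 of the 34 genes (29.4%), beside 35.8% of all genes of at least 100 counts. They numbered 17, with 4 each for Adamts13 and F11, 2 for Ggcx, and 1 each for F3, F5, F7, Fgb, Kng2, Plau and Tfpi. The 2 of Ggcx lie on a scaffold outside the chromosomes, where their junctions could not be compared. The other 15 overlap the gene, and 14 of them had at least 1 splice junction not in GENCODE M21. Only 10 of the 17 lie wholly inside the RefSeq gene. That of Fgb runs from 83005181 to 83049863 on chromosome 3, a span that takes in the positions of Fga and Fgg. Its part in the counts of the fibrinogen genes was not tested. The abundance of the added transcripts is not analysed here. None of the 16 splicing events deposited for the comparison lay in a member.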

How the data were processed

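Per the labels, HISAT, StringTie, Cufflinks, GATK, Bowtie2 and RSEM were used, with versions not given in the sources used here. For each gene the authors deposited an RSEM expected count per group, the sum over its 7 libraries, not normalized. The authors also deposited counts of clean reads and genes and mapping rates in percent for each library, counts of splicing events, and a file of assembled transcripts. Columns with the authors' log2 ratios, p-values and q-values hold their own comparison and were not used. A table of gene values per library had been allowed for, which would have been tested with edgeR. Here each gene had 1 value per group, so no test was made and no p-value is given.

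Sums were scaled by column totals, with no pseudocount. Intervals are 95% exact conditional binomial intervals of the ratio of 2 sums, rounded to whole numbers for this step. Genes of at least 100 counts in both groups together were kept, and like-length medians were taken over the 500 nearest in length, the gene itself left out. The log2 limit of 0.32 and a fold of 2 served as calls. Groups and replicate numbers came from the labels. Lengths were those of the gene table, and positions and promoters came from RefSeq, matched by gene identifier. Shared stretches of 100 bases were counted over GENCODE M21 transcripts. The 34 genes and all lists were chosen with earlier results of these data known. The text names all 34 genes and, of each other list, the 2 of highest and 2 of lowest ratio, except 1 gene that is not reported here. Apoe and Serpinc1 were added to these after their values were seen. Alternatives were edgeR TMM factors, centring on the median of all genes, totals without the 50 genes of highest counts, a pseudocount of 1, 200 nearest genes, 20 classes of length, and a minimum of 10 or none. The computation was tested on simulated data. Tools were edgeR 4.0.16 in R 4.3.3 and, under Python 3.11.15, scipy 1.17.1, pandas 2.3.3, numpy 2.4.6 and matplotlib 3.10.9.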

Additional observations from a re-analysis of the deposited data

Results flagged for a closer look

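Control replicate 3 had 64.3% of its reads mapped to genes, a value set apart from the other 6 control libraries by Dixon's criterion for 7 values. Chance flags about 1 in 20 groups, and 8 groups of values were checked. The control sums of the 34 genes include this library, and values without it could not be given because only the sum over the group was used.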

How the results depend on the processing

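The choice of scaling moved the count of members past the log2 limit of 0.32 and the median log2 ratio of the members, which was 0.085 by totals. With edgeR TMM factors the median was -0.072, with 0 members higher and 10 lower. After centring on the median of all genes it was -0.077, again with 0 higher and 10 lower. With totals that left out the 50 genes of highest counts it was -0.014, with 1 higher and 7 lower. These scalings shift every gene by -0.16, -0.16 and -0.099, respectively, which by construction is the whole of the difference. Like-length ratios do not depend on the scaling. With the 200 genes nearest in length, 1 member, Hrg, was higher past the limit. With the 500 genes nearest in length and count together, an alternative chosen after seeing the data, the median like-length ratio was -0.10 and F13a1, at -0.29, was no longer past the limit, which left 5 members lower. The cause was not tested. Of 340 values of single genes under the alternatives, 232 moved by less than their counting interval and 108 by more. The ratio kept its sign under every alternative in 25 members and the like-length ratio in 32, the exceptions being Fga and Vwf.

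No paired analysis was possible because each gene has 1 sum per group, and for the same reason leaving out each library in turn was not run. With no spread between pools, a difference here describes these 2 sums and not the diets. Depth limits the genes of few counts, F13a1, Plat and Plaur above all, whose intervals were wide and included 0 under total scaling. For the fibrinogen genes counting error is small.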
